A study of Rattus norvegicus with 60 samples.

Results

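Of the 350 rat microRNAs (miRs) on the array, 8 belong to the miR-18a, miR-19 and miR-25/92 groups, and their signals in the rat retina after ischemia-reperfusion (IR) injury are described here. They were chosen by name and not by any measured value: rno-miR-18a, rno-miR-19a, rno-miR-19b, rno-miR-25, rno-miR-32, rno-miR-92a, rno-miR-92b and rno-miR-363, without the star forms. Whole retinas came from 60 male Long Evan's hooded rats, each measured on its own array, and 6 rats made up each of 10 groups. In the 30 IR rats, a needle in the anterior chamber of one eye held the intraocular pressure at 110 mmHg for 60 min, and the retina was taken either at the end of ischemia (0 h) or after 2 h, 24 h, 48 h or 7d of reperfusion. The 30 sham control rats were treated alike at the same 5 time points, without the raised pressure, and rats of both kinds received sodium pentobarbital, tetracaine and tropicamide. The labels give no age for the rats used in these groups. Because whole retinas were measured, a lower share of a cell type and less RNA per cell cannot be told apart.

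MiRs are short RNAs that repress messenger RNAs, and pair with them mainly through the seed, bases 2 to 8 from the 5′ end. Several miRs can be cut from one primary transcript, and then share their transcription but not their processing or their decay. The miR-17/92 transcript is known for promoting growth and survival of cells, and its member miR-92a for restraining vessel growth in endothelial cells.

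The mature sequences are shown because they decide which of the 8 miRs can share targets and which the probes have to tell apart. All 8 were found in RefSeq (build GRCr8), and they are written 5′ to 3′ with the seed in capitals. The RefSeq arms were -5p for miR-18a and miR-32 and -3p for the other 6. The 2 miR-19 forms share their seed, 5 miRs share the miR-25/92 seed, and miR-18a has a seed of its own.
rno-miR-18a: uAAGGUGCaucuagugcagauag
rno-miR-19a: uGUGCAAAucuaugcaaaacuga
rno-miR-19b: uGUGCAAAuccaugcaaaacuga
rno-miR-25: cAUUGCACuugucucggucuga
rno-miR-32: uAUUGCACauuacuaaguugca
rno-miR-92a: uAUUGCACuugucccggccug
rno-miR-92b: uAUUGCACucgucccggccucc
rno-miR-363: aAUUGCACgguauccaucugu

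Among the 693 mature rat miRs of the RefSeq table, the seed GUGCAAA stands in these 2 forms of miR-19 alone, and the seed AUUGCAC in these 5 miRs alone. The 2 miR-19 forms differ at 1 of 23 positions, U11C, with the base of rno-miR-19a first and positions counted from the 5′ end. Over the first 21 bases rno-miR-25 and rno-miR-92a have 18 positions in common (85.7%), and rno-miR-92a and rno-miR-92b have 19 (90.5%). rno-miR-363 has the same seed but fewer positions in common, 10 of 21 with rno-miR-92a (47.6%) and 8 of 21 with rno-miR-25 (38.1%). Each of the 8 miRs was measured by 20 spots per array.

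On chromosome 15 of GRCr8 the mature forms from miR-17 to miR-92a lie within 762 bases on the plus strand (chr15:98587861-98588622). This cluster holds rno-miR-18a (chr15:98588000-98588022), rno-miR-19a (chr15:98588179-98588201), one copy of rno-miR-19b (chr15:98588486-98588508) and one of rno-miR-92a (chr15:98588602-98588622). A second cluster spans 474 bases on the minus strand of chromosome X from miR-20b to rno-miR-363 (chrX:137342788-137342808), and holds the other copies of rno-miR-19b (chrX:137343070-137343092) and rno-miR-92a (chrX:137342945-137342965). The 2 copies of each give the same mature sequence, so the array cannot separate the loci. The hairpins of both clusters overlapped no other gene of the RefSeq table. On chromosome 12, rno-miR-25 (chr12:22156652-22156673), miR-93 and miR-106b lie within 472 bases inside the span of the protein-coding gene Mcm7, which encodes a subunit of the replicative helicase. rno-miR-32 lies within Tmem245 on chromosome 5 (chr5:76391328-76391349), and rno-miR-92b stands alone on chromosome 2 (chr2:176931663-176931684).

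The arrays detected 59 to 232 miRs each, and the IR arrays were dimmer on average at every time point but 2 h. The log2 brightness of an array (the 75th percentile of the 57 miRs that all 60 arrays detected) was 8.27 ± 0.57 in the IR group and 10.42 ± 0.35 in the sham control group at 24 h (SD, n = 6 each). At 7d the values were 8.16 ± 0.47 and 10.74 ± 0.24, and at 2 h they were 9.84 ± 0.58 and 9.80 ± 0.41. The signals were divided by this brightness, raised to at least 6.20 signal units and taken to log2, and these values are called log2 scaled signal below. The lowest scaled signal that still counted as detected was also higher on the IR arrays, with a median of 28.1 against 5.22 units at 24 h and 35.6 against 3.53 at 7d. At 2 h it was not, with 3.03 against 3.94. IR and sham control arrays shared 2 of the 9 slides, whereas each of the 3 scans held as many IR as sham control arrays.

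Detection divided the 8 miRs into 2 sets. rno-miR-19b and rno-miR-92a were detected on all 60 arrays, and rno-miR-25 on 59, all but 1 IR array at 7d. rno-miR-363 was detected on 26 arrays, 5 of them IR and 21 sham control. The others were rarely detected: rno-miR-92b on 9 arrays (1 IR, 8 sham control), rno-miR-19a on 8 (all sham control), rno-miR-18a on 5 (1 IR, 4 sham control) and rno-miR-32 on none. The lower counts in the IR group lie beside its higher detection limit at the time points other than 2 h, and the part of that limit in them was not tested. A test needed detection on the 6 arrays of some group, which 4 of the 8 miRs met, among 159 miRs in all. rno-miR-363 met it only in the sham control group at 7d, so it is described below by its detection and no test of it is read.

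**Figure D1:**
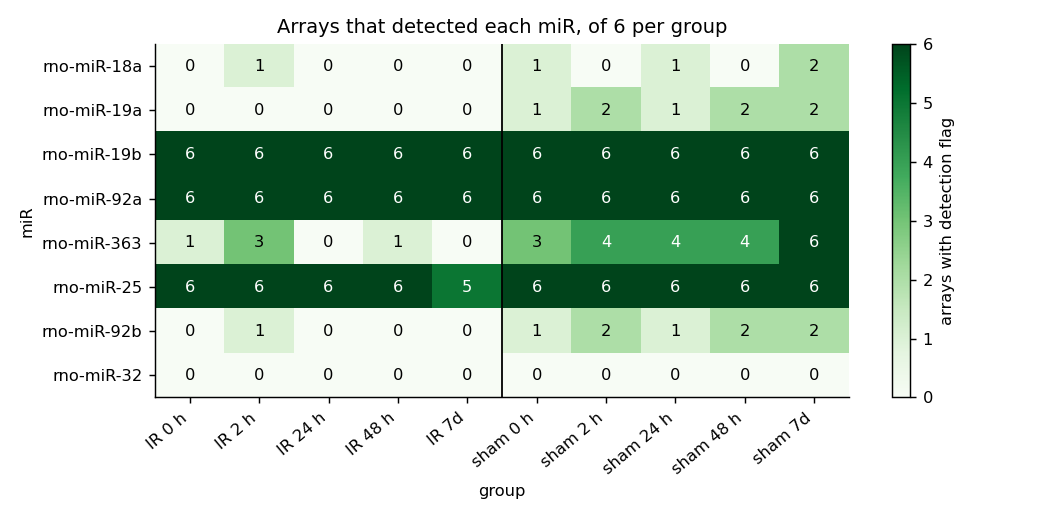
Number of arrays, of 6 in each of the 10 groups (columns), on which each of the 8 miRs (rows) carried the detection flag. rno-miR-19b and rno-miR-92a were detected on 6 arrays in every group, rno-miR-32 on none, and rno-miR-363 on 0 IR but 6 sham control arrays at 7d.

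With the scaling used here, neither rno-miR-19b nor rno-miR-25 passed the test as higher in IR than in sham control retinas. rno-miR-92a, the last member of the chromosome 15 cluster, did. Its log2 scaled signal at 24 h ran from 8.10 to 8.51 with a median of 8.44 on the IR arrays, and from 7.67 to 7.92 with a median of 7.79 on the sham control arrays. The lowest IR array thus exceeded the highest sham control array. The difference at 24 h was 0.60 ± 0.08 on the log2 scale (SE, n = 6 against 6), a fold change of 1.52 with a 95% interval of 1.36 to 1.70 (limma, adjusted p = 2.1e-08 over the 159 miRs).

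At 7d the log2 scaled signal of rno-miR-92a ran from 8.21 to 8.40 (median 8.30) on the IR arrays and from 7.61 to 7.86 (median 7.75) on the sham control arrays. Again no IR array overlapped the sham control arrays. The difference was 0.55 ± 0.08 (SE), a fold change of 1.47 with a 95% interval of 1.32 to 1.64 (limma, adjusted p = 1.0e-07). At 48 h the IR arrays ran from 7.90 to 8.44 (median 8.25) and the sham control arrays from 7.71 to 8.22 (median 7.91). These groups overlapped, with 5 of 6 IR arrays above the sham control mean. The difference was 0.32 ± 0.08 (SE), a fold change of 1.25 (limma, adjusted p = 6.7e-04). This pass at 48 h held in 14 of 20 other settings, no normalization between arrays not counted, and was lost in 6. These were the 75th percentile over all miRs (0.17, limma, adjusted p = 0.15), the authors' table (0.18, adjusted p = 0.12), slide as a fixed block (0.28, adjusted p = 0.053), a fit on the arrays of 48 h alone (adjusted p = 0.057), the exact permutation test (adjusted p = 0.056) and a test against a fold change of 1.2 (adjusted p = 0.54).

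Early in reperfusion rno-miR-92a did not pass the test. At 0 h its IR arrays ran from 7.97 to 8.19 (median 8.08) and its sham control arrays from 7.84 to 8.24 (median 7.90), with a difference of 0.13 and a 95% interval of -0.03 to 0.29 (limma, adjusted p = 0.34). At 2 h they ran from 7.95 to 8.27 (median 8.01) and from 7.93 to 8.11 (median 8.01), with a difference of 0.05 and an interval of -0.11 to 0.21 (limma, adjusted p = 0.89). The difference at 24 h exceeded that at 0 h by 0.48 ± 0.11 on the log2 scale (SE, limma interaction, adjusted p = 0.0032), and the difference at 7d exceeded it by 0.43 ± 0.11 (adjusted p = 0.0050). The excess at 24 h did not keep its side of the threshold with quantile normalization, nor did that at 7d with slide as a fixed block. The differences at 7d and 24 h could not be told apart (-0.05, 95% interval -0.27 to 0.17, adjusted p = 0.82).

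None of these differences of rno-miR-92a reached the 2-fold threshold of the methods. Counting an adjusted p of at most 0.05 alone, 60.4% of the 159 miRs tested passed at 24 h, 54.7% at 48 h, 59.7% at 7d, 12.6% at 0 h and 7.55% at 2 h. A pass at 24 h, 48 h or 7d was therefore common. Upward passes numbered 39, 31 and 32 of the 159 miRs at these times, with rno-miR-92a among them at all 3. rno-miR-19b and rno-miR-25 passed at none. A lack of overlap at 24 h and 7d was not particular to rno-miR-92a, since rno-miR-20a and the photoreceptor miR rno-miR-183 had it too. The share of the 159 miRs without overlap was not counted. The lack of overlap is therefore a description and not a trait of rno-miR-92a. The interaction passed for 6.29% of the 159 miRs at 24 h against 0 h and for 25.8% at 7d against 0 h, and among rno-miR-92a, rno-miR-19b and rno-miR-25 for rno-miR-92a alone. The median difference over all 159 miRs was -0.13 at 24 h, -0.15 at 48 h and -0.15 at 7d.

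On each of the 3 scans the difference of rno-miR-92a had the same sign at 24 h (0.74, 0.49 and 0.67) and at 7d (0.59, 0.54 and 0.53), with 1 to 3 arrays per group and scan. With array brightness as a covariate it was 0.46 at 24 h (limma, adjusted p = 0.0011) and 0.39 at 7d (adjusted p = 0.018). Brightness itself differed between IR and sham control arrays at these times, so this fit cannot separate brightness from treatment. Before any scaling between arrays the sign was the opposite, with differences of -1.55 at 24 h and -2.03 at 7d, when the median over all 159 miRs stood at -2.07 and -2.54. Relative to that median rno-miR-92a stood higher by 0.52 and 0.51, against 0.73 and 0.70 with the scaling used here. With normexp background correction, which models the background of each array, its differences were 0.73 and 0.84, but the median over all 159 miRs rose to 1.03 and 1.31, so that rno-miR-92a stood at -0.30 and -0.47 relative to it.

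**Figure D2:**
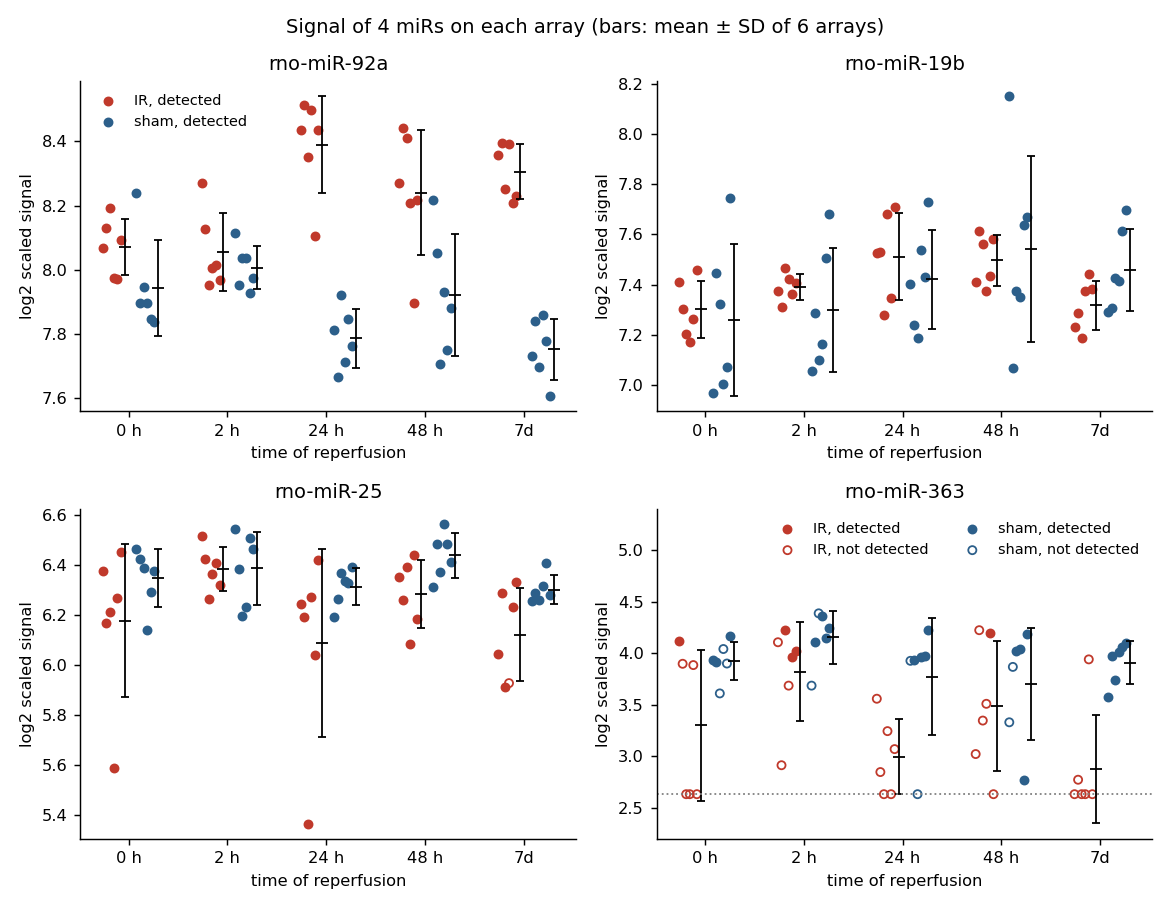
Log2 scaled signal of rno-miR-92a, rno-miR-19b, rno-miR-25 and rno-miR-363 on every array against the time of reperfusion, in IR (red) and sham control (blue) retinas, with open points where the miR was not detected and bars for the mean ± SD of 6 arrays. The IR and sham control points of rno-miR-92a stand apart at 24 h and 7d, those of rno-miR-19b overlap at all 5 time points, and many points of rno-miR-363 lie at the floor of 2.63 (dotted).

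rno-miR-19b, cut from the same 2 clusters as rno-miR-92a, passed the test at no time point with this scaling. At 24 h its log2 scaled signal ran from 7.28 to 7.71 (median 7.53) on the IR arrays and from 7.19 to 7.73 (median 7.42) on the sham control arrays, and at 7d from 7.19 to 7.44 (median 7.33) and from 7.29 to 7.70 (median 7.42). The groups overlapped at both times. The difference was 0.09 at 24 h (95% interval -0.15 to 0.33, limma, adjusted p = 0.50) and -0.14 at 7d (-0.38 to 0.10, adjusted p = 0.31). At 0 h, 2 h and 48 h it was 0.04, 0.09 and -0.05, with adjusted p from 0.75 to 0.90. At 24 h and 7d the intervals leave room for a change between -0.38 and 0.33 on the log2 scale. With normexp its differences were 0.58 at 24 h and 0.62 at 7d (limma, adjusted p = 0.0080 and 0.0041), below the medians of all 159 miRs of 1.03 and 1.31. With the 75th percentile over all miRs its difference at 7d was -0.34 (limma, adjusted p = 0.0042), beside a median of -0.35. It thus passed upward with normexp and downward with that percentile, and at 7d it passed in 5 of 20 other settings. Relative to the median it stood at 0.22 at 24 h and 0.0065 at 7d with the scaling used here, and at -0.46 and -0.69 with normexp. The sham control arrays themselves were wide, with an SD of 0.37 at 48 h against 0.10 on the IR arrays.

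rno-miR-25, the miR within Mcm7 that shares the seed of rno-miR-92a, also passed at no time point. At 24 h its log2 scaled signal ran from 5.36 to 6.42 (median 6.22) on the IR arrays and from 6.19 to 6.39 (median 6.33) on the sham control arrays. The lowest IR value came from a single array, replicate 3. The difference at 24 h was -0.22 ± 0.11 (SE, limma, adjusted p = 0.068), and without that array it was -0.08 (adjusted p = 0.48). At 7d the IR arrays ran from 5.91 to 6.33 (median 6.13) and the sham control arrays from 6.26 to 6.41 (median 6.28), and 5 of 6 IR arrays fell short of the sham control mean. The difference was -0.18 (95% interval -0.40 to 0.04, adjusted p = 0.145). At 0 h, 2 h and 48 h the difference was -0.17, 0.00 and -0.15, with adjusted p of 0.35, 1.0 and 0.24. The sign of its difference moved with the scaling of all miRs, from -0.54 at 24 h and -0.38 at 7d with the 75th percentile over all miRs (limma, adjusted p = 1.4e-05 and 0.0014) to 0.84 and 1.08 with normexp. Relative to the median of all 159 miRs it was below 0 in each of these settings, at 24 h at -0.10 with the scaling used here, -0.11 with the 75th percentile over all miRs and -0.20 with normexp, and at 7d at -0.033, -0.033 and -0.22.

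rno-miR-363, the last member of the chromosome X cluster, was dim throughout. At 7d 0 of 6 IR arrays and 6 of 6 sham control arrays detected it, and its log2 scaled signal ran from 2.63 to 3.94 (median 2.63) and from 3.58 to 4.10 (median 3.99). One undetected IR value lay within the sham control range. At 24 h the counts were 0 and 4, and the values ran from 2.63 to 3.56 (median 2.96) and from 2.63 to 4.22 (median 3.95). No fold change or test of it is read, because the mean detection limit of the IR arrays lay above the sham control means. That limit was 4.89 at 7d and 4.67 at 24 h on the log2 scale, and those means were 3.91 and 3.77. At 0 h, 2 h and 48 h it was detected on 1, 3 and 1 of 6 IR arrays and on 3, 4 and 4 of 6 sham control arrays.

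With the 2-fold threshold added, rno-miR-92a, rno-miR-19b and rno-miR-25 were called at no time point. Over all 159 miRs, 6.92% were called at 0 h, 5.03% at 2 h, 18.2% at 24 h, 13.8% at 48 h and 18.2% at 7d.

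The other 4 miRs were not tested. rno-miR-19a had a median raw signal of 5.92 units over the 60 arrays, with a maximum of 26.8, whereas rno-miR-19b, which differs from it at 1 base, had a median of 197. rno-miR-92b, which is known from neural progenitors, had a median of -1.92 and a maximum of 14.8, and rno-miR-92a a median of 303. The median was -1.19 for rno-miR-18a (maximum 8.74) and -4.0 for rno-miR-32, whose highest value of -0.41 was below 0 after background subtraction. These signals come from different probes and do not rank the miRs by amount. For rno-miR-18a and rno-miR-19a, cut from the same transcript as rno-miR-92a, the arrays thus give neither a level nor a change.

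A ratio of 2 miRs on the same array does not depend on the scaling between arrays, so the members were also set against each other. Ratios were taken for pairs detected on all 12 arrays of a time point, which gave 13 comparisons. The log2 ratio of rno-miR-92a over rno-miR-19b at 7d ran from 0.77 to 1.13 on the IR arrays and from -0.09 to 0.53 on the sham control arrays, with no overlap. Its mean was higher by 0.69 in IR (exact two-sided permutation test, p = 0.0022, the smallest that 6 against 6 arrays allow, adjusted p = 0.014 over the 13). At 24 h the ratio ran from 0.73 to 1.07 and from 0.04 to 0.73. The highest sham control array lay just above the lowest IR array, and the difference was 0.51 (exact test, p = 0.0043, or 0.019 after adjustment).

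The seed partner rno-miR-25 gave differences of the same sign at 24 h and 7d. Both ratios have rno-miR-92a as numerator, and that of rno-miR-25 over rno-miR-19b follows from them, so these tests are not separate evidence. With the scaling used here, rno-miR-92a stood above the median of all tested miRs by 0.73 at 24 h and 0.70 at 7d. Its ratio over a miR near that median is then higher in IR as well. How often the ratios of other miR pairs differed was not counted. The log2 ratio of rno-miR-92a over rno-miR-25 at 24 h ran from 2.02 to 2.99 on the IR arrays and from 1.37 to 1.62 on the sham control arrays, with no overlap and a difference of 0.83 (exact test, p = 0.0022, or 0.014 after adjustment). It was 0.47 at 48 h (exact test, p = 0.011, adjusted p = 0.028), with 5 of 6 IR arrays above the sham control mean. Leaving out any 1 of 9 of the 12 arrays raised that adjusted p to 0.056. At 7d, where 1 IR array did not detect rno-miR-25 and no test was made, the ratio was 2.13 ± 0.20 on the 5 IR arrays that did and 1.45 ± 0.09 on the 6 sham control arrays (SD). At 0 h the difference was 0.30 (exact test, adjusted p = 0.056), and 2 h gave 0.05 (adjusted p = 0.61).

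The ratio of rno-miR-25 over rno-miR-19b was lower in IR by 0.31 on the log2 scale at 24 h (values -1.42 and -1.11, exact test, adjusted p = 0.028). This difference was 0.10 with the opposite sign when log2 signals were averaged over probes, and leaving out IR replicate 3 or sham control replicates 2 or 3 raised its adjusted p to between 0.056 and 0.061. The ratios do depend on the background correction. With normexp in place of the deposited correction, the difference of rno-miR-92a over rno-miR-19b was 0.15 at 24 h and 0.22 at 7d, and that of rno-miR-92a over rno-miR-25 was -0.11 at 24 h and -0.29 at 48 h. None of these passed the exact test (adjusted p from 0.155 to 0.475). With log2 signals averaged over probes, the 3 differences of rno-miR-92a at 24 h and 7d stayed past the test.

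**Figure D3:**
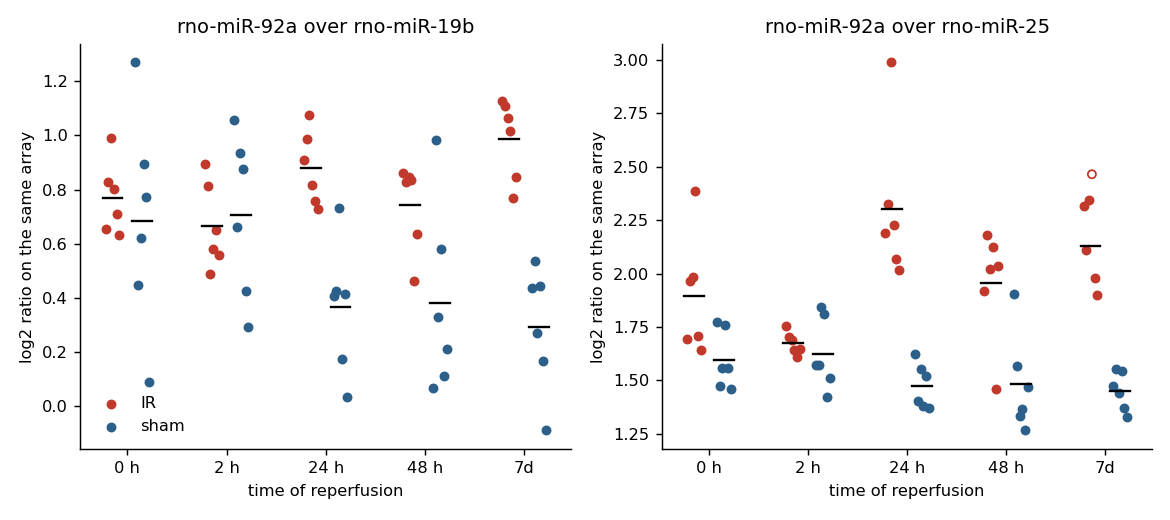
Log2 ratio of rno-miR-92a over rno-miR-19b (left) and over rno-miR-25 (right) on each array against the time of reperfusion, in IR (red) and sham control (blue) retinas, with lines for the group means over detected values and an open point where rno-miR-25 was not detected. The groups do not overlap at 7d on the left and at 24 h on the right.

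Within the 3 scans the difference of the rno-miR-92a over rno-miR-19b ratio was 0.53, 0.44 and 0.69 at 24 h and 0.63, 0.68 and 0.77 at 7d, and that of rno-miR-92a over rno-miR-25 was 0.75, 0.94 and 0.64 at 24 h. That of rno-miR-25 over rno-miR-19b at 24 h was -0.22, -0.50 and 0.05.

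The other miRs of the same clusters put these values in context. Of 11 partner miRs of the 3 clusters on the array (the miR-17 seed miRs and the star forms), 4 were tested: rno-miR-20a, rno-miR-20b-5p, rno-miR-93 and rno-miR-106b, all with the growth-linked miR-17 seed. By adjusted p, 2 of them rose at 24 h, 4 at 48 h, 2 at 7d, 3 at 2 h and 0 at 0 h, and none fell. Of all 159 miRs tested, 39, 31, 32, 12 and 17 rose at these times. Before any scaling between arrays several of the partner differences were below 0 (rno-miR-20a -0.94 at 24 h and -1.68 at 7d). With the 2-fold threshold the partner counts were 1, 3, 0, 2 and 0. The shares of all 159 miRs called, in either direction, were 18.2%, 13.8%, 18.2%, 5.03% and 6.92%. rno-miR-17-5p was detected on 28 arrays and was not tested.

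rno-miR-20a lies between rno-miR-19a and rno-miR-19b on chromosome 15. Its log2 scaled signal at 24 h ran from 7.83 to 8.20 (median 7.98) on the IR arrays and from 6.49 to 7.05 (median 6.81) on the sham control arrays, with no overlap, and it was higher in IR by 1.21 ± 0.11 at 24 h (SE, limma, adjusted p = 2.3e-13). Its difference was 1.34 at 48 h and 0.90 at 7d (adjusted p = 4.8e-15 and 4.6e-09). Side by side, the 3 miRs of this cluster thus had differences of 1.21 (rno-miR-20a), 0.09 (rno-miR-19b) and 0.60 (rno-miR-92a) at 24 h and of 0.90, -0.14 and 0.55 at 7d. On the same array, the log2 ratio of rno-miR-20a over rno-miR-19b ran from 0.31 to 0.73 in IR and from -0.81 to -0.26 in sham control at 24 h, and from 0.01 to 0.21 and from -1.33 to -0.78 at 7d, with no overlap. This ratio is given as a description without a test.

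On chromosome 12 the neighbors of rno-miR-25 within Mcm7 had differences above 0 at 24 h, 48 h and 7d, and rno-miR-25 below 0. rno-miR-93 was higher in IR by 0.71 at 24 h (limma, adjusted p = 0.011) and 1.15 at 48 h (adjusted p = 6.7e-05), and by 0.11 at 7d, where it did not pass. It was detected on 3 of 6 IR arrays at 24 h and on 2 of 6 at 7d, against 6 of 6 sham control arrays at both times. rno-miR-106b differed by 0.03 at 24 h (adjusted p = 0.71), and was higher by 0.18 at 48 h (adjusted p = 0.047) and 0.21 at 7d (adjusted p = 0.016), against -0.22, -0.15 and -0.18 for rno-miR-25. The mean log2 ratio of rno-miR-106b over rno-miR-25 was 0.40 in IR and 0.14 in sham control at 24 h, and 0.47 and 0.08 at 7d. At 24 h it ran from 0.12 to 1.04 and from 0.01 to 0.20, with overlap. At 7d it ran from 0.36 to 0.61 and from -0.005 to 0.14, without overlap. This ratio too is a description without a test. For rno-miR-106b the rise was lost with the 75th percentile over all miRs (0.03 at 48 h and 0.01 at 7d) and with quantile normalization (0.00 and 0.03). On chromosome X, rno-miR-20b-5p was higher in IR by 1.63 at 2 h and 1.42 at 48 h (limma, adjusted p = 0.0060 and 0.0046), with 3 to 6 of 6 arrays per group detecting it at those times. At 2 h 3 of 6 sham control arrays were at the floor, so the size of that difference depends on the floor. Only the sham control groups at 48 h and 7d met the detection rule for this miR.

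**Figure D4:**
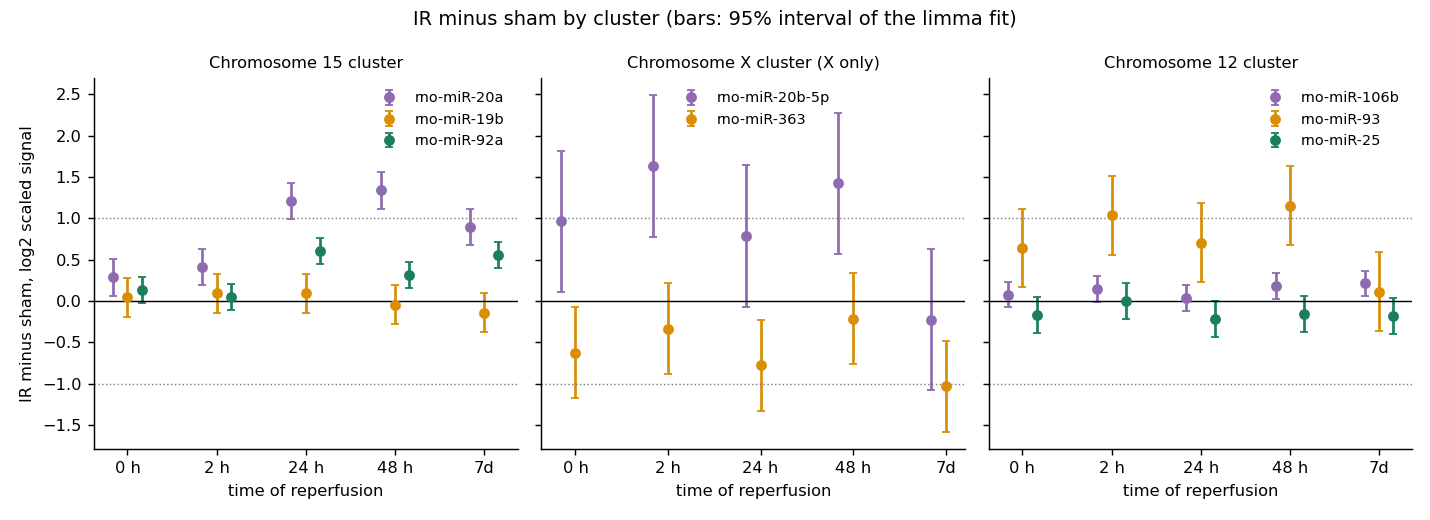
IR minus sham control difference in log2 scaled signal against the time of reperfusion for the tested miRs of the chromosome 15 (left), X (middle) and 12 (right) clusters, with 95% intervals of the limma fit and dotted lines at 2-fold. rno-miR-19b and rno-miR-92a also have a copy on X, and the points of rno-miR-363 rest on values at the floor or not detected. rno-miR-20a lies highest on the left at 24 h (1.21), above rno-miR-92a (0.60) and rno-miR-19b (0.09).

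In the sham control retinas rno-miR-92a, rno-miR-19b and rno-miR-25 did not pass the test between 0 h and any later time point. The largest difference was 0.28 for rno-miR-19b at 48 h (limma, adjusted p = 0.22). For rno-miR-92a the sham control mean was lower than at 0 h by 0.16 at 24 h and by 0.19 at 7d (adjusted p = 0.31 and 0.11).

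Ordered by group mean, the 5 IR groups held the 5 highest places for rno-miR-92a, from 8.39 at 24 h, 8.31 at 7d and 8.24 at 48 h to 8.07 at 0 h and 8.06 at 2 h. The sham control groups followed from 8.01 at 2 h to 7.75 at 7d. No 2 neighbors in this order were further apart than the larger of their SDs, and the same held for rno-miR-19b, rno-miR-25 and rno-miR-363. The mean of rno-miR-19b ran from 7.26 to 7.54 over the 10 groups, that of rno-miR-25 from 6.09 to 6.44 and that of rno-miR-363 from 2.87 to 4.15.

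The miRs with the pattern most like rno-miR-92a over the 10 group means, among the 56 others detected on all arrays, were rno-miR-22 (Pearson r = 0.94), rno-miR-328 (r = 0.91) and its cluster partner rno-miR-20a (r = 0.89). For rno-miR-19b they were rno-miR-500 (r = 0.63), rno-miR-21 (r = 0.48) and rno-miR-466b (r = 0.35). Neither of these lists holds the other member. The group means share arrays, brightness and scaling, so these correlations are descriptions.

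Marker miRs of photoreceptors and neurons were present, as the labelled tissue would have them, but the muscle miR rno-miR-206 was also detected on 57 arrays. The 3 photoreceptor miRs (the miR-183 cluster) and the 3 neuronal miRs (miR-124, miR-9 and miR-9*) were detected on all arrays of every group. Of the photoreceptor miRs, rno-miR-183 was higher in IR at 24 h (0.40, limma, adjusted p = 2.4e-04) and 7d (0.31, adjusted p = 0.0025), without overlap of the groups, and at 48 h (0.25, adjusted p = 0.020). rno-miR-182 was lower at 48 h (-0.38, adjusted p = 0.0013) and did not pass at 24 h or 7d, and rno-miR-96 passed at none of these times. The neuronal rno-miR-9 (-0.37, limma, adjusted p = 0.038) and rno-miR-9* (-0.26, adjusted p = 0.043) were lower in IR at 24 h alone. rno-miR-124 passed at no time (0.02 at 24 h). The pigment epithelium rno-miR-204 was lower at 24 h alone (-0.27, limma, adjusted p = 0.026), and rno-miR-211 passed at no time. The pigment epithelium miRs rno-miR-204 and rno-miR-211 were detected on all 60 arrays and rno-miR-184 on 33, with none of them IR arrays at 7d, where its IR values were all at the floor of 2.63 and its sham control mean was 5.97. Both red blood cell miRs had a summed scaled signal between 0 and 4.73 units. Of the 3 leukocyte miRs, none was detected on all arrays of any group, and 2 were detected on no array of any group. Their summed scaled signal ran from 30.5 to 106.5 on the IR arrays and from 2.71 to 16.7 on the sham control arrays at 24 h, and from 34.5 to 84.5 and from 5.50 to 16.7 at 7d. The sum of 4 muscle miRs was also higher on the IR arrays, at 136 to 279 against 44.4 to 73.4 units at 24 h and 102 to 160 against 39.9 to 76.7 at 7d. Of these 4, rno-miR-206 was detected on 57 arrays, rno-miR-1 on 11, rno-miR-133b on 7 and rno-miR-133a on 0. The sum is thus mostly a reading of rno-miR-206, which was higher in IR by 1.91 at 24 h and 1.34 at 7d (limma, adjusted p = 1.6e-04 and 0.0058). The sum was also higher at 0 h (median 196 against 54.3) and 2 h (334 against 47.6), where rno-miR-92a did not pass. The median detection limit at 2 h was 3.03 on the IR and 3.94 on the sham control arrays. The part of these sums, of rno-miR-183 and of the detection limits in the difference of rno-miR-92a was not tested. Of the 2 endothelial miRs, rno-miR-126* was detected on no array, and rno-miR-126 was lower in IR at 24 h by 0.52 (values 4.53 and 5.06, limma, adjusted p = 0.0050) and did not pass at the other times.

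**Figure D5:**
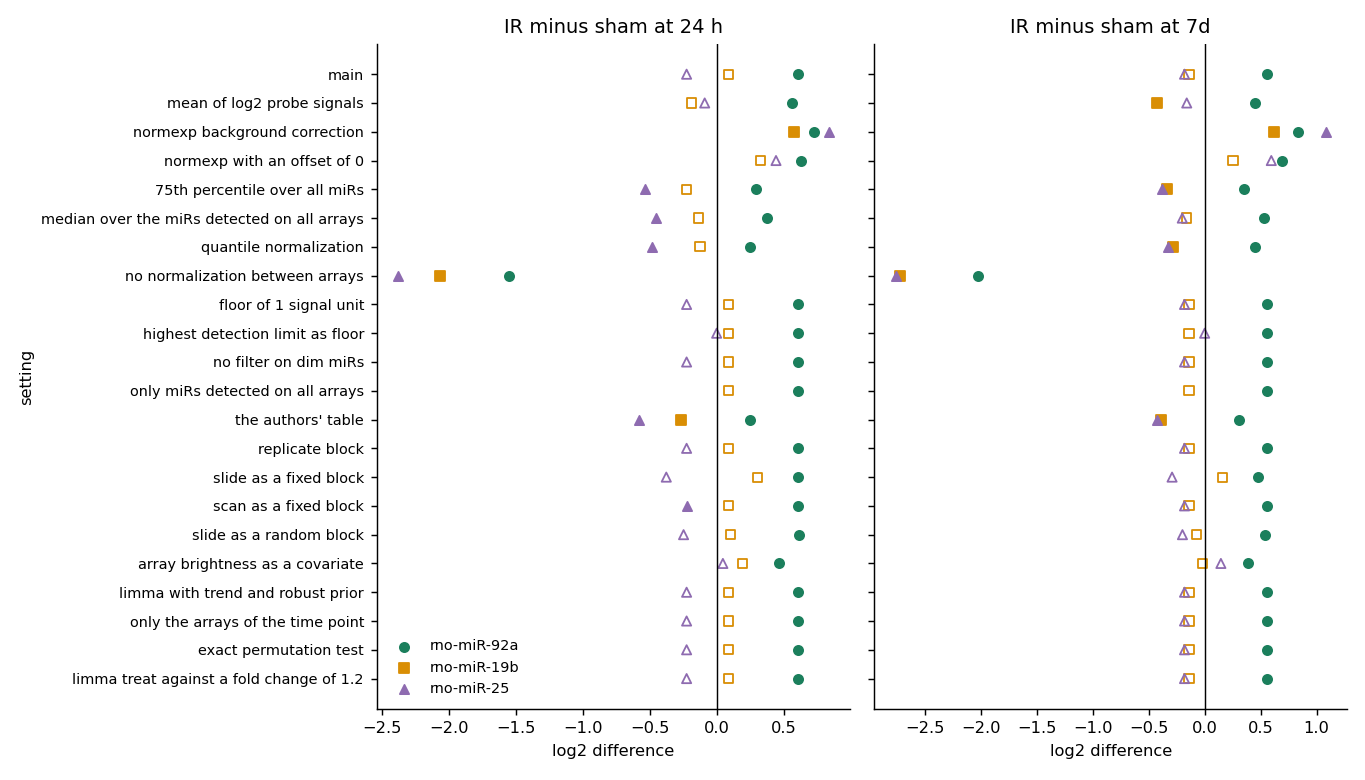
IR minus sham control difference in log2 signal of rno-miR-92a (circles), rno-miR-19b (squares) and rno-miR-25 (triangles) at 24 h (left) and 7d (right) under each way of processing (rows), with filled symbols for an adjusted p of at most 0.05. rno-miR-92a lies between 0.25 and 0.73 at 24 h and between 0.30 and 0.84 at 7d except without normalization between arrays, where it is at -1.55 and -2.03, and rno-miR-25 lies on both sides of 0.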

How the data were processed

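Total RNA of each retina was labeled with Cy3 and hybridized to 1-color Agilent rat miR arrays. The authors deposited intensities extracted with Agilent Feature Extraction 9.5.3.1, corrected for background but not normalized between arrays. They also deposited a table of log2 values, scaled to the 75% quantile in GeneSpring per the methods. Its column medians ran from -0.86 to -0.41 (median -0.65), and all 12600 values compared equaled the log2 total signal, raised to at least 1 unit, minus 1 constant per array (tolerance 0.001), so its scale, centring and direction are known. It was used as an alternative.

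The total signal per miR was divided by the 75th percentile, per array, of the 57 miRs that all 60 arrays detected, raised to 6.20 units and taken to log2. The 159 miRs detected on all 6 arrays of a group entered 1 fit of 10 groups with limma 3.58.1 (R 4.3.3) and Benjamini-Hochberg adjustment per contrast. Calls used a fold change of 2 and an adjusted p of 0.05, the thresholds of the methods. Where no IR array detected a miR, its bound used the mean detection limit. Ratios used exact permutation tests. Figures used Python 3.11.15 and matplotlib 3.10.9. The fit was tested on simulated data. No 2 arrays held the same values (SD of log2 differences at least 0.148 over 1770 pairs), and the number of arrays limits the precision.

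The members, partner list and markers were chosen by name with earlier results of these data known. Named miRs were all members, the listed cluster partners and, per member detected on all arrays, the 3 most like it. Alternatives were other summaries, background corrections, scalings, floors, filters, blocks, tests and call rules, the authors' table, and each array left out in turn. No sample was left out.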

Additional observations from a re-analysis of the deposited data

Results flagged for a closer look

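On 3 of 30 group tests of a member, 1 array stood apart from the other 5, where chance alone gives about 1 in 20. For rno-miR-25 the lowest IR array at 0 h (replicate 4) had a log2 scaled signal of 5.59, with the next at 6.16. The lowest IR array at 24 h (replicate 3) had 5.36, with the next at 6.04. For rno-miR-92a the highest sham control array at 0 h (replicate 1) had 8.24, with the next at 7.95.

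The IR minus sham control difference of rno-miR-92a was larger at 24 h than at 0 h by 0.475 on the log2 scale (limma interaction, adjusted p = 0.0032), and larger at 7d than at 0 h by 0.425 (adjusted p = 0.0050). Each of these changed its side of the threshold in another setting, quantile normalization at 24 h and slide as a fixed block at 7d.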

How the results depend on the processing

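With the alternatives that kept all arrays, the differences, interactions, ratios and counts kept their direction and their side of the threshold in 839 of 1064 cases, and with 1 array left out in 1146 of 1176. A value that passed under neither setting was not counted as changed, although its sign differed in 110 of 2070 alternatives. rno-miR-92a at 24 h and 7d passed upward in 20 of 20 settings, with no normalization between arrays not counted. In that setting its differences were -1.55 and -2.03. Other floors and filters left its values unaltered, so their passes are no separate support. With normexp (offset 50) it passed, but stood at -0.30 and -0.47 relative to the median of all 159 miRs. The values that changed follow as IR minus sham control log2 differences, and the cause was not tested. With normexp (offset 50), rno-miR-19b had 0.51 at 0 h, 0.58 at 24 h, 0.58 at 48 h and 0.62 at 7d, rno-miR-20b-5p 1.76 at 7d, rno-miR-25 0.69 at 0 h, 0.84 at 24 h, 0.93 at 48 h and 1.08 at 7d, rno-miR-363 1.18 at 0 h, 1.3 at 24 h, 1.56 at 48 h and 1.74 at 7d, with rno-miR-92a 0.40 at 0 h, and call counts over all miRs were 71 at 0 h, 2 at 2 h, 83 at 24 h, 93 at 48 h and 99 at 7d. The ratio changed by 0.26 for rno-miR-25 over rno-miR-19b at 24 h, 0.15 for rno-miR-92a over rno-miR-19b at 24 h, -0.11 for rno-miR-92a over rno-miR-25 at 24 h, -0.29 for rno-miR-92a over rno-miR-25 at 48 h and 0.22 for rno-miR-92a over rno-miR-19b at 7d.

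Without normalization between arrays, rno-miR-106b had -0.98 at 0 h, -2.12 at 24 h, -1.01 at 48 h and -2.37 at 7d, rno-miR-19b -1.02 at 0 h, -2.06 at 24 h, -1.24 at 48 h and -2.72 at 7d, rno-miR-20a -0.78 at 0 h, -0.94 at 24 h and -1.68 at 7d, rno-miR-20b-5p -1.29 at 24 h, rno-miR-25 -1.23 at 0 h, -2.38 at 24 h, -1.35 at 48 h and -2.76 at 7d, rno-miR-363 -1.17 at 0 h and -1.11 at 48 h, rno-miR-92a -0.93 at 0 h, -1.55 at 24 h, -0.88 at 48 h and -2.03 at 7d, with rno-miR-93 -1.45 at 24 h, -0.041 at 48 h and -2.41 at 7d, whereas call counts over all miRs were 84 at 0 h, 5 at 2 h, 139 at 24 h, 121 at 48 h and 151 at 7d. With the highest detection limit as the floor, call counts over all miRs were 3 at 0 h, 3 at 2 h, 8 at 24 h, 5 at 48 h and 6 at 7d. With the 57 miRs detected on all arrays alone, call counts over all miRs were 2 at 0 h, 2 at 2 h, 6 at 24 h, 4 at 48 h and 4 at 7d. With the authors' table, rno-miR-106b had -0.23 at 0 h, -0.32 at 24 h and -0.038 at 7d, rno-miR-19b -0.27 at 0 h, -0.26 at 24 h and -0.39 at 7d, rno-miR-25 -0.48 at 0 h, -0.58 at 24 h, -0.29 at 48 h and -0.43 at 7d, rno-miR-363 -1.74 at 0 h and rno-miR-92a 0.18 at 48 h, and call counts over all miRs were 21 at 0 h, 45 at 24 h, 35 at 48 h and 48 at 7d. With slide as a fixed block, rno-miR-363 had -0.25 at 24 h and -0.42 at 7d, with rno-miR-92a 0.28 at 48 h, and call counts over all miRs were 7 at 0 h and 4 at 2 h. The interaction of rno-miR-92a, 7d minus 0h was 0.30. With the 12 arrays of a time point alone, rno-miR-92a had 0.32 at 48 h, and call counts over all miRs were 5 at 0 h. With the exact permutation test per miR, rno-miR-363 had -0.78 at 24 h and rno-miR-92a 0.32 at 48 h, and call counts over all miRs were 3 at 0 h and 0 at 2 h. With the 75th percentile over all miRs, rno-miR-106b had -0.24 at 0 h and -0.28 at 24 h, rno-miR-19b -0.28 at 0 h and -0.34 at 7d, rno-miR-25 -0.49 at 0 h, -0.54 at 24 h, -0.31 at 48 h and -0.38 at 7d, rno-miR-363 -0.86 at 0 h and rno-miR-92a 0.17 at 48 h. With the median of the miRs detected on all arrays for scaling, rno-miR-25 had -0.32 at 0 h and -0.45 at 24 h. With quantile normalization, rno-miR-106b had -0.23 at 24 h, rno-miR-19b -0.28 at 7d, rno-miR-25 -0.38 at 0 h, -0.48 at 24 h, -0.31 at 48 h and -0.32 at 7d, with rno-miR-363 -1.06 at 0 h, and the interaction of rno-miR-92a, 24h minus 0h was 0.37. With a floor of 1 signal unit, rno-miR-363 had -1.82 at 0 h, and call counts over all miRs were 34 at 48 h. With normexp and an offset of 0, chosen after seeing the data, rno-miR-19b had 0.52 at 48 h, rno-miR-20b-5p 1.44 at 7d, rno-miR-25 0.89 at 48 h and rno-miR-363 0.93 at 24 h, 1.91 at 48 h and 1.3 at 7d, whereas call counts over all miRs were 2 at 2 h, 12 at 24 h and 88 at 48 h. The ratio changed by 0.12 for rno-miR-25 over rno-miR-19b at 24 h, 0.30 for rno-miR-92a over rno-miR-19b at 24 h, 0.18 for rno-miR-92a over rno-miR-25 at 24 h, -0.25 for rno-miR-92a over rno-miR-25 at 48 h and 0.44 for rno-miR-92a over rno-miR-19b at 7d. With all 350 miRs tested, call counts over all miRs were 13 at 2 h and 45 at 24 h. With log2 signals averaged over probes, rno-miR-106b had -0.59 at 24 h and -0.13 at 7d, rno-miR-19b -0.42 at 7d, with rno-miR-363 -0.30 at 24 h and -0.40 at 7d, whereas call counts over all miRs were 18 at 24 h and 18 at 7d. The ratio changed by 0.24 for rno-miR-92a over rno-miR-25 at 0 h, 0.10 for rno-miR-25 over rno-miR-19b at 24 h, 0.56 for rno-miR-92a over rno-miR-19b at 48 h and 0.42 for rno-miR-92a over rno-miR-25 at 48 h. With array brightness as a covariate, rno-miR-363 had 0.40 at 24 h and 0.37 at 7d, whereas call counts over all miRs were 14 at 24 h and 5 at 7d. Without the fold change threshold, the members called numbered 2 at 24 h, 1 at 48 h and 2 at 7d. Of all 159 miRs, 60.4%, 54.7% and 59.7% passed at these times. At 24 h and 7d, 1 of the 2 was rno-miR-363, whose test is not read. With limma treat against a fold change of 1.2, rno-miR-363 had -0.78 at 24 h and rno-miR-92a 0.32 at 48 h. The members called numbered 1 at 24 h and 2 at 7d, again counting rno-miR-363 at 7d. With scan as a block, rno-miR-25 had -0.22 at 24 h. With slide as a random block, rno-miR-363 had -0.70 at 24 h.

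The values of rno-miR-363 rest largely on undetected or floor signals and are given for completeness. With 1 array left out, rno-miR-363 at 0 h ran from -0.79 to -0.49, rno-miR-25 at 24 h from -0.29 to -0.079, and the ratio of rno-miR-92a over rno-miR-25 from 0.20 to 0.35 at 0 h and from 0.43 to 0.57 at 48 h. That of rno-miR-92a over rno-miR-19b ran from 0.30 to 0.48 at 48 h, and that of rno-miR-25 over rno-miR-19b from -0.30 to -0.12 at 0 h and from -0.36 to -0.22 at 24 h.

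Other scalings moved the median of all 159 miRs by -0.31, -0.30, -0.14 and -0.20 (75th percentile over all miRs at 0 h, 24 h, 48 h and 7d), -0.14 and -0.22 (median, 0 h and 24 h), -0.20, -0.11, -0.22, -0.13 and -0.14 (quantile), -1.02, -1.94, -1.14 and -2.39 (none, without 2 h) and 0.90, 0.10, 1.16, 1.29 and 1.45 (normexp). At 24 h the miRs called higher and lower numbered 19 and 10, against 15 and 20 (75th percentile over all miRs), 15 and 16 (median), 15 and 22 (quantile), 1 and 138 (none) and 83 and 0 (normexp). At 7d they numbered 12 and 17, against 10 and 27, 12 and 21, 12 and 26, 0 and 151, and 99 and 0. At 48 h they numbered 16 and 6, against 13 and 10, 12 and 12 (quantile), 3 and 118, and 93 and 0. At 0 h they numbered 10 and 1, against 8 and 2 (median), 7 and 5 (quantile) and 4 and 80 (none).

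The replicate numbers did not pair the samples, since the correlations of same-numbered IR and sham control arrays ran from -0.45 to 0.60 and 3, 2, 1, 1 and 0 of 6 IR arrays correlated best with their own number. With the replicate block the miRs called numbered 10, 8, 29, 21 and 29 at the 5 time points, against 11, 8, 29, 22 and 29. Among the members and partners it changed 1 call, rno-miR-106b at 48 h (adjusted p = 0.054).

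The precision is limited by 6 arrays per group, and on the dim IR arrays by the higher detection limit. Whether rno-miR-18a, rno-miR-19a, rno-miR-92b or rno-miR-363 changed cannot be read from these arrays. The same holds for rno-miR-32, which no IR and no sham control array detected.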
